A study of Mus musculus with 2 samples.

Results

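The genes described here are 10 carriers by which the intestinal epithelium takes up dipeptides, tripeptides and amino acids from digested protein. They were chosen by name, with earlier results of these data known. Every probe set whose platform annotation gave exactly 1 of these symbols was kept, which was 14 of 45101 probe sets and 10 of 18193 named genes. The series held 2 Affymetrix Mouse Genome 430 2.0 arrays of biopsies from wild-type adult mice, 1 hybridised with small intestinal RNA and 1 with RNA of the colon. The labels give neither strain nor number of animals. With 1 array per tissue no test could be run, no difference below has a replicate check, and a count is a count past a fixed fold. The colon array went against its label in part, since all 11 measured genes of the exocrine pancreas were bright on it, with a mean log2 level of 4.38 in small intestine and 11.98 in colon. As no other colon array was there to use, every difference rests on this one.

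Protein reaches the blood through an epithelium with 2 faces. At the apical face, the brush border, a proton-coupled carrier takes up small peptides, while sodium-dependent symporters and an exchanger for cystine and basic amino acids take up single amino acids. At the basolateral face, exchangers made of a light chain (the pore) and a glycosylated heavy chain pass amino acids towards the blood. The rodent small intestine is known as the main site of this uptake, and loss of several of the human counterparts causes inherited disorders such as cystinuria and Hartnup disorder.

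All 10 genes were brighter on the small intestine array than on the colon array, by 3.15-fold to at least 106-fold. The median difference of their brightest probe sets was 3.69 on the log2 scale, small intestine minus colon, against -0.06 over 11015 genes that exceeded background in at least 1 tissue. Levels are log2 expression values as deposited, a level of 5 was taken as background, and for differences lower values were raised to 5. All 10 genes reached 3-fold (1.58 on the log2 scale) in favour of small intestine and 0 in favour of colon, where over all genes 5.71% were higher in small intestine and 5.49% in colon. These were 629 and 605 genes. As the 10 genes were chosen with earlier results of these data known, the contrast with these shares is only a description. Centring the arrays on hybridization spike-ins gave 837 for small intestine and 446 for colon, and the 10 genes kept their calls. Among 228 genes whose symbols begin with Slc and a number, most of them solute carriers, 20.6% were higher in small intestine and 12.3% in colon. Without the 10 genes these were 37 and 28 of 218, with a median difference of -0.07. In bulk tissue, fewer cells of a type cannot be told apart from less RNA per cell.

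**Figure D1:**
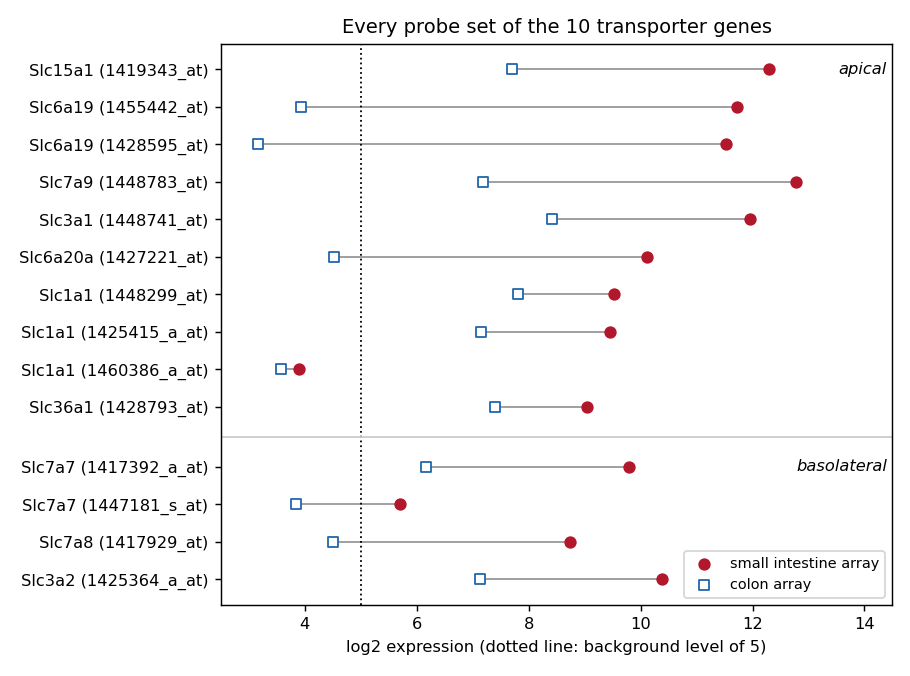
Log2 expression of each of the 14 probe sets on the small intestine array (filled circles) and the colon array (open squares), with apical carriers above and basolateral carriers below the grey line. The small intestine value lies to the right in every row, and 13 of 14 probe sets exceed the dotted background level of 5 in small intestine.

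The peptide carrier Slc15a1 (PEPT1) couples the uptake of dipeptides and tripeptides to protons. Its single probe set, 1419343_at, had 12.30 in small intestine and 7.71 in colon, which is 24.2-fold. It was well above background in both tissues, and its difference was number 77 of 11015 genes. The second proton-coupled carrier, Slc36a1 (PAT1), takes up small neutral amino acids such as glycine and proline. It had 9.05 in small intestine and 7.39 in colon (1428793_at), which is 3.15-fold and the smallest difference of the 10 genes.

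Slc6a19 (B0AT1) is the sodium-dependent carrier of neutral amino acids whose human counterpart is lost in Hartnup disorder. Its probe set 1455442_at had 11.73 in small intestine and 3.93 in colon, and 1428595_at had 11.53 and 3.17 on the same arrays. Both were bright in small intestine and below background in colon, so that the folds are lower bounds, at least 106-fold and at least 92.4-fold. This was the largest difference of the 10 genes, number 28 of 11015. Slc6a20a (SIT1), which carries proline and other imino acids with sodium, had 10.11 in small intestine and 4.52 in colon (1427221_at), at least 34.6-fold. Its near copy Slc6a20b stayed between 2.21 and 3.04 in small intestine and between 2.20 and 3.10 in colon over 2 probe sets. The antisense genes Slc6a19os (2.23 in small intestine, 2.22 in colon) and Slc36a1os (3.85 and 3.90 in the same order) were also below background on both arrays.

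Slc7a9 (b0,+AT) and Slc3a1 (rBAT) are the light and the heavy chain of the apical exchanger for cystine and basic amino acids, and loss of either causes cystinuria in humans. The light chain had 12.78 in small intestine and 7.18 in colon (1448783_at, 48.3-fold). The heavy chain had 11.96 in small intestine and 8.41 in colon (1448741_at, 11.7-fold). The differences of the 2 chains were thus 2.05 apart on the log2 scale, with a pooled SD of 0.60 between probe sets of 1 gene over 4140 genes. That SD is not the spread of a gap between 2 genes. Slc1a1 (EAAT3), the sodium-dependent carrier of glutamate and aspartate, differed less. Its probe sets 1448299_at and 1425415_a_at had 9.53 and 9.45 in small intestine and 7.81 and 7.16 in colon, which are 3.30-fold and 4.89-fold. Its other probe set, 1460386_a_at, was below background with 3.90 in small intestine and 3.58 in colon.

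The basolateral exchangers share the heavy chain Slc3a2 (4F2hc, CD98), which many cell types use. It had 10.38 in small intestine and 7.13 in colon (1425364_a_at, 9.55-fold). Of its light chains, Slc7a7 (y+LAT1) exports basic amino acids, and loss of its human counterpart causes lysinuric protein intolerance. Its probe set 1417392_a_at had 9.80 in small intestine and 6.16 in colon, which is 12.4-fold. Its other probe set, 1447181_s_at, had 5.70 in small intestine and 3.84 in colon, at least 1.62-fold and under the 3-fold rule. With the median of both sets on each array, the difference of Slc7a7 was 2.75 in place of 3.63 and still past 3-fold. Slc7a8 (LAT2), an exchanger of neutral amino acids, had 8.74 in small intestine and 4.51 in colon (1417929_at), at least 13.3-fold.

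**Figure D2:**
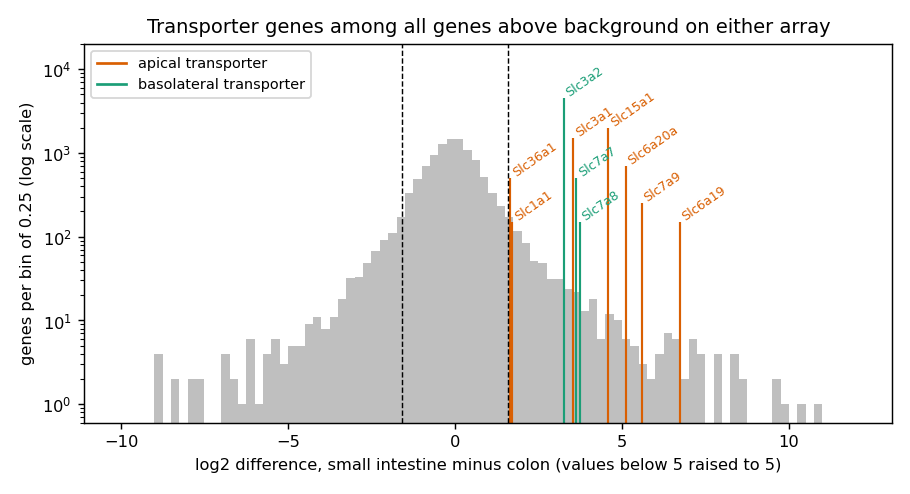
Histogram of the log2 difference, small intestine minus colon, over 11015 genes above background on either array, with the number of genes per bin on a log scale and dashed lines at 3-fold. Coloured lines place the 10 transporter genes, from 1.66 for Slc36a1 to 6.73 for Slc6a19.

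Set side by side, the 7 apical genes had a median difference of 4.59 and the 3 basolateral genes of 3.63, a gap of 0.96. The sides overlapped. The basolateral genes lay between 3.26 and 3.74, while the apical genes ran from 1.66 to 6.73. Both upper ends, of Slc7a8 and of Slc6a19, are lower bounds set by the background of 5. Of the apical genes, Slc6a19, Slc7a9, Slc6a20a and Slc15a1 lay above every basolateral gene, Slc3a1 lay within their range, and Slc1a1 and Slc36a1 lay below it. The heavy chains of the 2 sides, Slc3a1 and Slc3a2, differed by 0.29. The light chain Slc7a9 stood 2.05 above its heavy chain, and Slc7a7 and Slc7a8 stood 0.38 and 0.48 above theirs. With the background of 5, only the gap of Slc7a9 exceeded the SD of 0.60 between probe sets of 1 gene. That SD is not the spread of a gap between 2 genes. The gaps of Slc7a7 and Slc7a8 turned sign under an alternative, against 3.26 for Slc3a2. Slc7a7 had 2.75 with the median over probe sets, and Slc7a8, whose difference is a lower bound, had 2.74 with a background of 6. With no floor Slc7a8 had 4.22, and its gap to Slc3a2 then also exceeded the SD of 0.60. No test was made of these gaps, since genes are not replicates of a tissue.

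The promoters of both heavy chains, of Slc7a9 and of Slc6a19 are shown because these genes mark the shared part, the light chain and the far end of the pattern. Each runs from 250 bases before to 50 after a RefSeq start (GRCm38.p6), and where a gene has several starts the first listed was taken. All 10 genes matched by symbol. Capitals mark matches, on either strand, to the letters of 6 motifs. The TATA box of core promoters was searched as TATAAA. The hepatocyte nuclear factor HNF1, which the gut epithelium also makes, was searched as GTTAAT. The nuclear receptor HNF4 of the same epithelium was searched as CAAAGTCCA. The zinc finger factors of the GATA family, known from the proximal gut, were searched as AGATAA. The homeobox factors of the CDX family, which shape the intestine, were searched as TTTATNG, where N is any base. The general zinc finger factor SP1 was searched as GGGCGG. Letters of the CDX and TATA motifs can overlap, and in Slc3a1 a TATA and a GATA match share 1 base and 2 TATA matches overlap.
Slc3a1 (chr17:85028097-85028396, plus strand): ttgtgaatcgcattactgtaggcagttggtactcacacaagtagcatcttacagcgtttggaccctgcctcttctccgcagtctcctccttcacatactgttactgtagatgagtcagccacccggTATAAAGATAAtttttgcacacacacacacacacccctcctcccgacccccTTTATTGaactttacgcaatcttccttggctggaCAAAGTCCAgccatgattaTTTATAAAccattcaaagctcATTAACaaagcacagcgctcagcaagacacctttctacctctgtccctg
Slc3a2 (chr19:8713848-8714147, minus strand): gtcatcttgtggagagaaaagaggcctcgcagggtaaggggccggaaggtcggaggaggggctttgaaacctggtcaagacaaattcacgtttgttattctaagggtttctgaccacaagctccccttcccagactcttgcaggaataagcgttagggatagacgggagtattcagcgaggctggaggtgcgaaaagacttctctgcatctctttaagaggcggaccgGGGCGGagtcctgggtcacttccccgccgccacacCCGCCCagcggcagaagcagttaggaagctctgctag
Slc7a9 (chr7:35448842-35449141, plus strand): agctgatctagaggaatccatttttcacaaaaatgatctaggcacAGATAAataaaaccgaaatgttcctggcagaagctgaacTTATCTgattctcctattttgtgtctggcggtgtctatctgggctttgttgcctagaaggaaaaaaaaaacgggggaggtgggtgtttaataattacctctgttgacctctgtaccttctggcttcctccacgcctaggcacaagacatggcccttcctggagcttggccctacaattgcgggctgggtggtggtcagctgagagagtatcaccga
Slc6a19 (chr13:73692587-73692886, minus strand): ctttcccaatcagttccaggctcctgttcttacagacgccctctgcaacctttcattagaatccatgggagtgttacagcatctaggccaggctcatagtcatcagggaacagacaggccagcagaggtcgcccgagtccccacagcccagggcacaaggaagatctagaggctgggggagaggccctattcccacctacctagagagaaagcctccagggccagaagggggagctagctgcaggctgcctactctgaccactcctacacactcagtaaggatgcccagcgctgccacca

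The promoter of Slc3a1 held 7 matches, of every motif but SP1. That of Slc3a2 held 2 SP1 matches, that of Slc7a9 2 GATA matches, and those of Slc6a19 and Slc15a1 none of the 6 motifs. Over all 10 genes, SP1 letters were found in 5 promoters, against 35.9% of 27018 RefSeq promoters of the same length. HNF1 letters were found in 3 (Slc36a1, Slc3a1 and Slc6a20a, against 7.2%) and GATA letters in 2 (Slc3a1 and Slc7a9, against 11.4%). TATA (14.2% of all promoters), CDX (11.3%) and HNF4 letters (0.477%) were found in Slc3a1 alone among the 10. A match is a run of letters and does not show a bound factor. On the arrays, 2 of 9 measured intestinal transcription factors were higher in small intestine and 1 in colon. Hnf4g had 8.74 in small intestine and 4.82 in colon (at least 13.4-fold). Its dimmer sets, 1450518_at and 1422182_at, gave at least 6.22-fold and at least 1.65-fold, the latter under 3-fold. Gata5 had 8.16 in small intestine and 3.39 in colon (at least 8.94-fold). Sox9, a factor of crypt cells, had 5.07 in small intestine and 6.90 in colon (3.54-fold higher in colon). Gata4 had 6.15 in small intestine and 3.23 in colon, at least 2.22-fold. Its other set, 1418864_at, was below background with 3.08 in small intestine and 3.06 in colon. Gata6 (0.89), Cdx2 (0.39), Sp1 (-0.17) and Cdx1 (-0.89), named after their values were seen, did not reach 3-fold. The probe sets of Hnf4a, named after its values were seen, disagreed. The brightest had 12.22 in small intestine and 12.33 in colon, while 1427000_at had 11.33 and 9.48 in the same order (3.60-fold higher in small intestine).

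The other carriers of amino acids and peptides on 3 lists did not share a direction. Of 36 on these lists, 21 were above background on either array, of which 2 were higher in small intestine, 4 in colon and 15 in neither, with a median difference of -0.19. The 2 were basolateral. Slc43a2 (LAT4), a uniporter of branched-chain and aromatic amino acids, had 12.66 in small intestine and 6.46 in colon (73.8-fold) on its brightest probe set. Another of its sets gave 10.13 in small intestine and 4.32 in colon, and its dimmest had 2.90 and 2.88 in the same order. Slc16a10 (TAT1), which carries aromatic amino acids, had 9.69 in small intestine and 3.56 in colon, at least 25.8-fold. Its 4 probe sets were all above background in small intestine and below it in colon, and 2 of them were past 3-fold. Slc7a6 (-0.61), the other light chain of y+L exchange, did not reach 3-fold. Slc7a15, on none of the lists and named after its value was seen, belongs to the family of Slc7a9 and had a difference of 3.71.

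The listed carriers higher in colon belong to families of the apical genes, but kinship did not set them apart. Slc6a6 and Slc6a9, in the family of Slc6a19, did not reach 3-fold. Slc36a4 and Slc1a4 were listed as carriers of most cells and not as luminal ones. Slc6a14 (ATB0,+), a sodium-coupled and chloride-coupled carrier of neutral and basic amino acids, had 4.26 in small intestine and 11.52 in colon (1420504_at), at least 91.5-fold higher in colon. Its other probe set had 2.67 in small intestine and 11.24 in colon. Its difference of -6.52 was the lowest of the 21 other carriers, in the family of Slc6a19 and Slc6a20a. Slc36a4, of the family of Slc36a1, had 5.87 in small intestine and 8.17 in colon (4.93-fold). Slc1a5 (ASCT2, 7.92 in small intestine and 9.52 in colon, 3.03-fold) and Slc1a4 (ASCT1, 8.07 and 9.87 in the same order, 3.49-fold), exchangers of small neutral amino acids in the family of Slc1a1, were also higher in colon. Slc1a5 (-1.35) and Slc1a4 (-1.55) fell under 3-fold after centring on spike-ins. Both also did so with the median over probe sets, at -0.82 for Slc1a5 and 0 for Slc1a4.

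The second peptide carrier, Slc15a2 (PEPT2), was below background in small intestine and above it in colon on all 3 of its probe sets. The brightest over both arrays had 3.95 in small intestine and 6.30 in colon, under 3-fold with the background of 5 and past it with a background of 4 (-2.30). Of the others, 1447808_s_at had 3.34 in small intestine and 6.82 in colon, at least 3.53-fold higher in colon, and 1424730_a_at had 3.63 and 5.65 in the same order, under 3-fold. Among carriers that most cells use, Slc7a5 (LAT1), another light chain of Slc3a2, had 5.81 in small intestine and 5.09 in colon, and the glutamine carrier Slc38a1 had 8.65 and 9.93 in the same order. Neither reached 3-fold, nor did the glycine carrier Slc6a9 (-0.96) or the taurine carrier Slc6a6 (10.24 on both arrays).

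**Figure D3:**
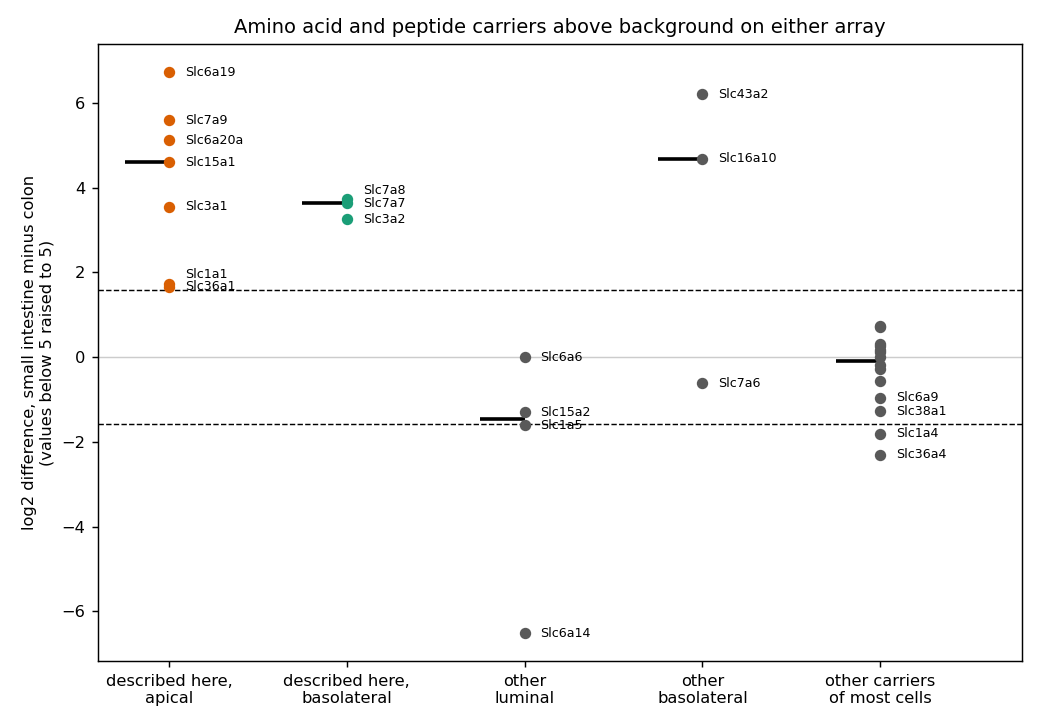
Log2 difference, small intestine minus colon, of each amino acid or peptide carrier above background on either array, with black bars as medians and dashed lines at 3-fold. All 10 genes described here lie above the upper line, and Slc6a14 lies lowest at -6.52. In the column of most cells, points nearer to 0 than 0.9 carry no name.

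Genes that work beside the carriers were mixed. Pdzk1, a scaffold of brush border transporters, had 12.07 in small intestine and 3.49 in colon, at least 135-fold. Its relative Slc9a3r1 (NHERF1) had 13.53 in small intestine and 11.10 in colon (5.38-fold). The sodium pump subunit Atp1b1 (0.81) and the sodium-proton exchangers Slc9a2 (-0.46) and Slc9a3 (-0.13, named after its value was seen) did not reach 3-fold. Of 15 measured peptidases, which release the substrates of these carriers, 11 were higher in small intestine and 0 in colon, with a median difference of 3.57 over all 15. The aminopeptidases Anpep and Enpep were at least 247-fold and 79.3-fold higher, the endopeptidase Mme at least 161-fold and the peptidyl dipeptidase Ace at least 28.9-fold. The dimmer probe sets of Mme and Ace gave at least 4.05-fold and at least 3.68-fold.

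Markers of the epithelium differed little between these biopsies, and those of other cells differed more. Of 8 epithelial markers all were above background on both arrays, with a mean level of 13.62 in small intestine and 13.30 in colon and a median difference of 0.30. Only Vil1, at 3.02-fold higher in small intestine, reached 3-fold. Smooth muscle genes, 10 in number, had a mean of 8.88 in small intestine and 10.11 in colon, with 0 past 3-fold in favour of small intestine and 5 in favour of colon. Lymphocyte genes (T and NK cells, 11 measured) had a mean of 8.03 in small intestine and 5.21 in colon, with 8 past 3-fold in favour of small intestine and 0 in favour of colon. The part of these cells and of the pancreatic RNA in the differences of the carriers was not tested.

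Control probe sets differed along the transcript. For poly-A spike-ins, added before labelling, sets at the 5' end were lower on the small intestine array by a mean of 2.02 (SD 0.76, 8 probe sets), while those at the 3' end were higher by 0.28 (SD 0.26, 8 probe sets). Hybridization spike-ins differed by -0.25 on average (SD 0.67, 18 probe sets), with a range from -1.52 to 0.33. All 10 transporter genes lay above that range, which does not cover labelling. The poly-A sets at the 5' end reached -2.73, larger in size than the differences of Slc1a1 (1.72) and Slc36a1 (1.66). The part of labelling in the differences was not tested.

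**Figure D4:**
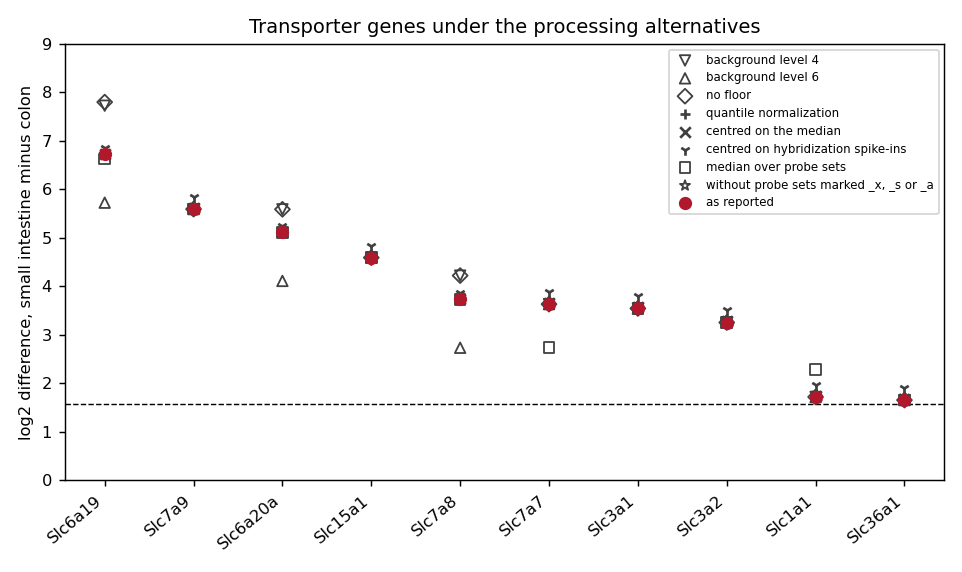
Log2 difference, small intestine minus colon, of each transporter gene as reported (red circles) and under 8 other ways of processing, with the dashed line at 3-fold. Every point lies above the line, and the background level moves Slc6a19, Slc6a20a and Slc7a8 most.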

How the data were processed

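The authors purified RNA on Qiagen RNeasy columns and hybridised it to the arrays, 1 per tissue. The values deposited by the authors are log2 expression per probe set. GCRMA is named in the submitters' processing notes without a version, but RMA is named in the study's methods. GCRMA lowers dim values, so folds against a dim tissue depend on it. Whether the strain, age and gut regions in those methods hold for these 2 arrays is not stated in the labels, so they are not assumed. Values were used as deposited (array medians of 3.99 for small intestine and 4.01 for colon). Genes came from the platform annotation. All 10 symbols matched RefSeq by Entrez identifier, 932 probe sets with several genes were left out, and 9160 were unnamed.

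A gene was represented by its brightest probe set over both arrays. A background of 5 and a 3-fold rule were used as in an earlier account of these data. Members and lists were chosen with earlier results of these data known, and 142 of 156 list entries were measured. Every transporter gene is named, with up to 4 genes per other list by size of difference, and Slc16a10, Slc43a2, Slc6a14, Slc7a5 and Slc1a5 in any case. Slc6a20b and the antisense genes are named as a near copy and as overlapping genes, and other exceptions are marked. The call rule was checked on simulated data. Alternatives were other backgrounds, folds, scalings and probe set choices. Python 3.11.15, numpy 2.4.6, pandas 2.3.3 and matplotlib 3.10.9 were used. The number of arrays limits the precision.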

Additional observations from a re-analysis of the deposited data

How the results depend on the processing

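Over 10 alternatives the 10 transporter genes kept their direction, and 0 were called higher in colon. Under the 8 alternatives that can move a difference, 72 of 78 differences of single genes moved by less than the SD of 0.60 between probe sets, 6 by more and 0 turned sign. Part of this count was fixed beforehand. A background level cannot move a gene that lies above it on both arrays. The median over probe sets cannot move a gene with 1 set, nor can leaving out marked sets where the brightest set is unmarked. Slc1a1 and Slc36a1 did not reach 5-fold, which left 8 genes called. Without probe sets marked _x, _s or _a, Slc7a7 and Slc3a2 had none left, which also left 8, and the basolateral side then rests on Slc7a8. The gap between apical and basolateral medians ran from 0.86 to 1.34. The difference of Slc6a19 was 7.73 with the background at 4, 5.73 at 6 and 7.80 with no floor. At a background of 6, Slc6a20a had 4.11 and Slc7a8 2.74, and with no floor they had 5.59 and 4.22. With the median over probe sets Slc7a7 had 2.75. Under the same median Slc16a10 had 2.13 in place of 4.69. Of the other carriers, 4 were higher in colon, against 1 at 5-fold (Slc6a14), and 2 after centring on spike-ins or with the median over probe sets (Slc6a14 and Slc36a4). Slc1a5 was also lost under quantile normalization and under median centring, and Slc1a4 without probe sets marked _x, _s or _a. Other alternatives raised the colon count, to 5 with a background of 4 or no floor (Slc15a2 added). At 2-fold it was 6, with Slc15a2 and Slc38a1 added. With no floor, 3 other carriers were higher in small intestine, with Slc15a3 added. Over all genes, 1265 were higher in small intestine and 1481 in colon at 2-fold, and 309 and 260 at 5-fold. No paired analysis was possible because each tissue had 1 array.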

Other observations

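Enzymes that use absorbed amino acids were looked at on a list added after the data were seen. Of 18 measured genes, 15 were above background on either array, of which 6 were higher in small intestine, 1 in colon and 8 in neither. Cps1, which makes carbamoyl phosphate for citrulline, had 12.54 in small intestine and 5.70 in colon (114-fold). Otc, the next enzyme of citrulline synthesis, had 13.05 in small intestine and 9.88 in colon, a difference of 3.17, and the mitochondrial arginase Arg2 had 12.71 and 9.48 in the same order (9.41-fold). Proline oxidase (Prodh) was 6.90-fold higher in small intestine. The next 4 genes were also picked after their values were seen. Aldh18a1, the first enzyme from glutamate to proline and ornithine, was 4.50-fold and glutamate dehydrogenase (Glud1) 3.56-fold higher in small intestine. Dimmer sets of Aldh18a1 gave 3.60-fold and 3.97-fold (1435855_x_at and 1437333_x_at) but also 1.69-fold and 1.59-fold (1415836_at and 1437620_x_at). The other set of Glud1, 1416209_at, gave 2.91-fold, under 3-fold. Glutamine synthetase (Glul) went the other way, with 10.58 in small intestine and 12.34 in colon (3.39-fold higher in colon). Ornithine aminotransferase (Oat, 1.96-fold) did not reach 3-fold.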
